A study of Mus musculus with 59 samples.

Results

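The response of the lung to the highest dose of benzo(b)fluoranthene (BbF) was examined by comparing the 5 lung arrays of mice given 100 mg/kg-bw/day with the 5 lung arrays of mice given vehicle, chosen by their source labels, that is 10 of the 59 arrays of the series. All mice were adult male Muta™Mouse, a transgenic strain that carries a bacterial reporter gene for mutation assays, and the vehicle group received olive oil alone. Both groups were dosed by oral gavage for 28 days, and lungs were taken 72 hours after the last dose. Vehicle mice are numbered 1 to 5 and high-dose mice 16 to 20. Sample titles and protocol give the compound as BbF, but benz(a)anthracene appears in the exposure field and in the series design, and the name BbF is used here. RNA came from a slice of lung tissue, a mixture of many cell types, so fewer cells of a type and less RNA per cell cannot be told apart in these data. The identity of the tissue was checked first. Surfactant protein C (Sftpc) lay between 6.84 and 7.56 and the club cell secretoglobin Scgb1a1 between 7.86 and 8.41 on all 10 arrays, on the scale of log2(Cy5/Cy3), the ratio of a mouse's RNA (Cy5) to a common reference RNA (Cy3) on the same array. All levels below are on this scale, and a change is the high-dose mean minus the vehicle mean in log2 units with its standard error (SE) over 5 and 5 mice.

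BbF is a polycyclic aromatic hydrocarbon. Such compounds bind the aryl hydrocarbon receptor (AhR), which induces the cytochrome P450 enzymes that turn them into reactive epoxides, and the DNA adducts that follow activate p53. The lung is densely vascularised, and its capillaries hold a general capillary cell, which serves as a progenitor, and a large, thin cell called the aerocyte, which lies at the gas exchange surface. The question here was which functions and which cell types the genes altered at the high dose are known for.

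A gene was called differentially expressed (DEG) at an adjusted p of at most 0.05 and a change of at least 1.5-fold. Of 37163 genes or transcripts, 507 were upregulated (1.36%) and 210 downregulated (0.565%). Symbols were found for 430 upregulated genes (2.15% of the 20018 with a symbol) and for 137 downregulated genes (0.684%). Among those with a symbol, 108 upregulated and 28 downregulated genes changed at least 2-fold. In 350 of the 430 no high-dose mouse was as low as any vehicle mouse, and in 103 of the 137 none was as high; over all genes with a symbol, by the brightest probe, the groups were separated in this way in 6.43% and 3.07%. Lists for 30 functions and 32 cell types held 711 genes found on the array, of which 91 were DEGs. The median change over all genes was -0.0029, a value near 0 that loess normalization of each array fixes in advance. A list's median is therefore read against 0 under this normalization only. With median centring of the arrays in place of loess, however, the brightest probes (the top 25%) shifted by a median of 0.42, and 3356 genes were upregulated and 32 downregulated. Many list medians shifted upwards with it, some from below to above 0.

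Differences among mice of the same group bear on what follows. Vehicle mouse 2 had higher levels of AhR targets than the other vehicle mice, with a mean over the list of 1.09 against a median of 0.0102 in the group. High-dose mice 16 and 18 had lower levels of several AhR targets than high-dose mice 17, 19 and 20. Genes of cardiac muscle and fat differed widely among mice of both groups. Myh6, a myosin heavy chain of heart muscle, ranged from 0.40 (mouse 3) to 5.81 in vehicle and from 0.70 to 6.33 at the high dose, with mice 17, 18 and 19 at or below 1.69. The arrays came from 3 slides that each held both groups. For the 78 genes named below by rule with a change, the direction within every slide was fixed, since the rule required groups without overlap.

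The 20 largest increases among DEGs whose groups did not overlap included Cyp1b1, Ahrr, Gdf15, Dbp and Mmrn2 and the genes described next. Cyp1a1 changed more than any of them (4.47 ± 1.13, adjusted p = 0.0202), but its groups overlapped. Cdkn1a, which encodes the cell cycle inhibitor p21, was 6.33-fold higher at the high dose, with a change of 2.66 ± 0.21 (adjusted p = 1.34e-07). The carboxylesterase Ces2e stood at 0.46, 0.90, 0.95, 0.86 and 1.22 in vehicle mice and at 3.34, 3.51, 3.11, 3.77 and 3.87 in high-dose mice. Its change was 2.65 ± 0.19 by one probe (adjusted p = 2.96e-08) and 0.60 by the other. The groups did not overlap for either gene. Ackr3, a receptor that removes the chemokine Cxcl12, lay between 0.52 and 0.93 in vehicle and at 2.92, 3.75, 2.10, 3.75 and 3.86 in mice 16 to 20, a change of 2.62 ± 0.28 (adjusted p = 8.67e-06). Uchl1, a deubiquitinase known from neurons and neuroendocrine cells, changed by 2.51 ± 0.27 (adjusted p = 6.48e-06), from 0.30 to 0.97 in vehicle to 2.27 to 3.51. Both genes were lowest in mouse 18 among the high-dose mice.

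Cd34, a sialomucin of endothelial and progenitor cells, lay at 0.41, 0.64, 0.39, 0.82 and 0.41 in vehicle and at 3.103, 3.16, 2.55, 2.86 and 3.24 at the high dose. It was 5.46-fold higher (2.45 ± 0.15, adjusted p = 8.74e-09), and its second probe gave 1.47. Sema3c, a secreted semaphorin, was 5.16-fold higher (2.37 ± 0.14, adjusted p = 8.46e-09), and Ramp3, the partner that makes the calcitonin-like receptor bind adrenomedullin, 4.47-fold higher (2.16 ± 0.16, adjusted p = 6.10e-08). Vehicle and high-dose mice were well separated in all these genes. Lama1, a laminin chain of basement membranes, was 5.53-fold higher, but vehicle mouse 2 stood at 2.74, whereas the other vehicle mice lay at 1.68 or below. Dync1i1, a subunit of the motor dynein, was not well above background on any vehicle array and was at least 3.89-fold higher at the high dose. The remaining genes of the 20 were Mmp8 (2.19 ± 0.35), the collagenase of neutrophils, the linker histone H1f2 (2.01 ± 0.17), the kinase Pkn3 (1.92 ± 0.11), the p53 target Phlda3 (1.91 ± 0.13), the leukotriene C4 synthase Ltc4s (1.85 ± 0.20) and the protease inhibitor Wfdc12 (1.82 ± 0.37).

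The 20 largest decreases among DEGs whose groups did not overlap included Gpihbp1, Car14, Esm1, Grp and Arntl and the genes described next. Gzma, a gene of natural killer (NK) cells, fell by 2.69, more than all of these but Gpihbp1, with overlapping groups. Syt15, a synaptotagmin, lay at 2.77, 2.62, 3.00, 3.12 and 3.27 in vehicle mice and at 1.30, 1.18, 1.10, 1.73 and 0.79 in high-dose mice. Its change was -1.74 ± 0.22 by one probe (adjusted p = 5.9e-05) and -0.56 by the other. Slc5a12, a sodium-coupled transporter of lactate and other monocarboxylates, was at least 2.45-fold lower, since none of the high-dose arrays measured it well above background, and vehicle mouse 5, at 3.25, stood above the other vehicle mice, which lay between 1.14 and 1.57. Klra4 and Klra16 encode Ly49 receptors of NK cells and decreased by 1.54 ± 0.28 and 1.19 ± 0.26, the latter by 1 of 3 probes, of which another gave -0.20. Because Ly49 genes are near-identical, their probes may share transcripts. The others were Hilpda, a lipid droplet protein, the kinesin Kif26b (-1.33 ± 0.18), Gm13889 (-1.21 ± 0.19, no DEG with median centring), Gprin3 (-1.19 ± 0.16), the bZIP repressor Nfil3, the chemokine Cx3cl1 (-1.18 ± 0.20), the neurexophilin Nxph3 (-1.13 ± 0.16), the cyclin-like Ccnjl (-1.12 ± 0.12), Fgfr1op2 (-1.09 ± 0.18 by one probe and -0.23 by the other, which was brighter) and the capillary genes Ednrb and Fibin described below. The spread of the mice in these genes is shown by their values relative to the vehicle mean.

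**Figure D1:**
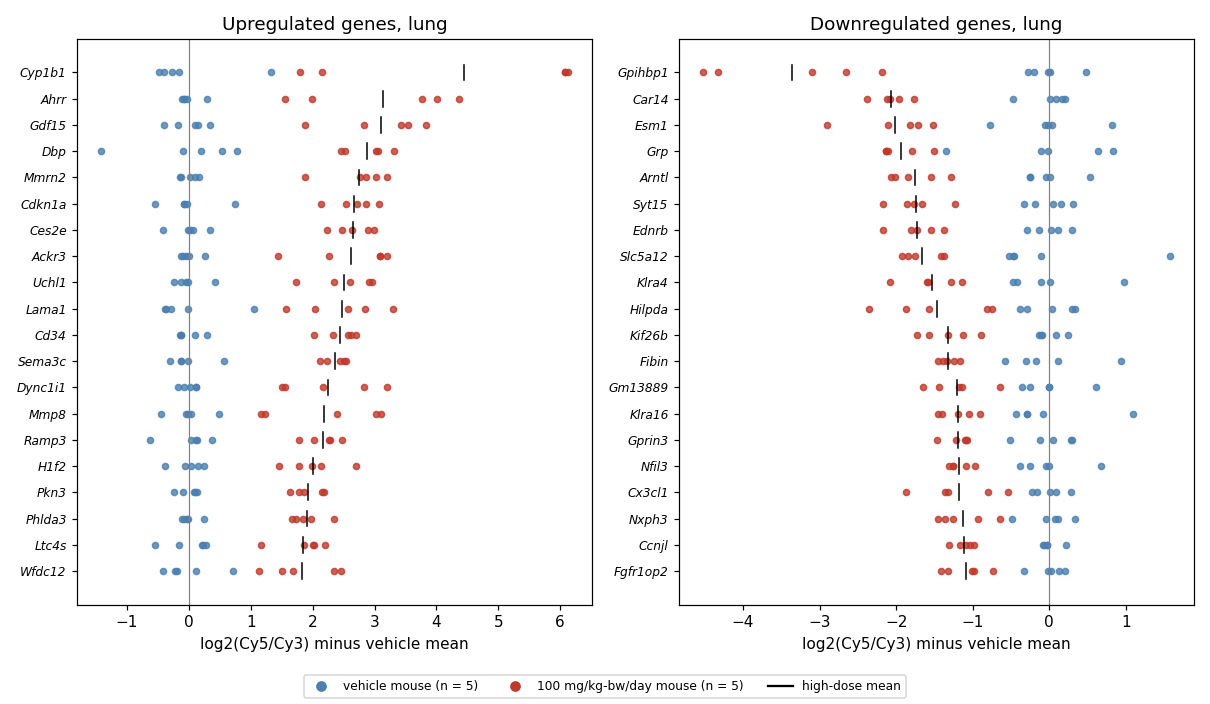
The 20 largest increases (left) and decreases (right) among DEGs that met the naming rule. The x axis is log2(Cy5/Cy3) minus the vehicle mean, each point is 1 mouse (blue, 5 vehicle; red, 5 high dose), and the black bar is the high-dose mean. No red point overlaps the blue points in any row, since the rule required it, and Cyp1b1 and Ahrr show the widest spread among high-dose mice.

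Of the 8 AhR target genes, 5 were upregulated, and Cyp1a2, Aldh3a1 and Ugt1a6a were not DEGs (changes of 0.02, -0.45 and -0.13, the first not well above background on any array). Cyp1a1 stood at 2.97, 8.39, 2.06, 2.81 and 2.64 in vehicle mice 1 to 5 and at 7.54, 8.94, 5.99, 9.36 and 9.38 in high-dose mice 16 to 20. Cyp1b1 stood at -1.39, 0.21, -1.53, -1.28 and -1.60 in vehicle and at 1.03, 4.95, 0.67, 4.96 and 5.01 at the high dose. The overlap of the groups for Cyp1a1 was due to vehicle mouse 2, and mice 16 and 18 were the lowest of the high-dose group for both genes. Ahrr, the AhR repressor, showed the same order, with 1.56 and 1.12 in mice 16 and 18 and 3.34 to 3.94 in the others. Nqo1, a quinone reductase, changed by 1.25 ± 0.30 (adjusted p = 0.0138) and Tiparp, a feedback inhibitor of AhR, by 0.71 ± 0.20 (adjusted p = 0.0361); mice 16 and 18 lay at -0.73 and -1.16 for Nqo1 and at -0.79 and -0.54 for Tiparp, within the range of vehicle mice or, for Nqo1 in mouse 16, just above it. Cyp1b1, Ahrr and Nqo1 were DEGs in all 10 omissions of a single mouse, Cyp1a1 in 5 and Tiparp in 2, and the list held 3 DEGs without high-dose mouse 17, 19 or 20. Nqo1 was also the only DEG among 16 genes regulated by NRF2, the sensor of oxidants, whose median change was 0.09. With median centring 5 of the 16 were upregulated, and their list median was 0.50.

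The short sequence GCGTG is the core of the element to which AhR binds. Promoters from 250 bases before to 50 bases after the start site, taken from RefSeq (GRCm38.p6), were searched on both strands. They were found for 337 of the 430 upregulated and 101 of the 137 downregulated genes. The core was present in the promoters of 4 of the 5 upregulated AhR targets, but it is common, occurring in 40.7% of the promoters of all genes on the array, in 44.8% of those of upregulated genes and in 50.9% of those of downregulated genes. It was also present in all 7 of the upregulated clock output genes, described below, for which a promoter was found. Windows of 60 bases before the start site are shown for the 4 genes, since they are the upregulated AhR targets that hold the core, with 1 occurrence of the core or its reverse complement CACGC in capitals; further occurrences are left in lower case.
Cyp1a1, chr9:57697532-57697591, + strand: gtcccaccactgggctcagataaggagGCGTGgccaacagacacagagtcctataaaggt
Cyp1b1, chr17:79715105-79715164, - strand: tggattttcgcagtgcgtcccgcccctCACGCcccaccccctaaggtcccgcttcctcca
Ahrr, chr13:74292406-74292465, - strand: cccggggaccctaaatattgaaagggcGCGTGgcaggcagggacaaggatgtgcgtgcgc
Tiparp, chr3:65528250-65528309, + strand: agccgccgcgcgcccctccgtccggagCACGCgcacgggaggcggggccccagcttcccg
A match describes letters only and does not show that AhR binds there.

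Of 19 genes for other enzymes and transporters of foreign compounds, Ephx1 and Abcb1a were upregulated and Fmo1 was downregulated (15.8% called). Over all genes with a symbol, 2.15% were upregulated and 0.684% downregulated. Ephx1, the microsomal hydrolase that opens epoxides to diols, lay between 1.26 and 1.504 in vehicle and between 2.29 and 2.53 at the high dose, a change of 0.98 ± 0.09 (adjusted p = 1.30e-06). It was the most uniform of the 3 across mice, and its second probe gave 1.02. The efflux pump Abcb1a changed by 0.74 ± 0.17, and the flavin monooxygenase Fmo1 by -0.85 ± 0.19, which was no DEG with median centring (-0.35). The median of the list was -0.06. Among 17 carboxylesterases, a family singled out after its values were seen, 3 were upregulated and all were of the Ces2 group: Ces2e, Ces2c (1.80 ± 0.24 by the called probe, 1 of 3) and Ces2g (0.67 ± 0.14).

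The mean over genes induced by p53 was higher in every high-dose mouse than in any vehicle mouse, in the list of arrest and feedback and in that of apoptosis. Of 16 genes of arrest and feedback, 9 were upregulated and none was downregulated (median change 0.68), and of 13 apoptosis genes, 4 were upregulated (median 0.26). The mean over the arrest genes ranged from -0.59 to -0.49 in vehicle and from 0.12 to 0.49 at the high dose. Ccng1, cyclin G1, stood at -0.42, -0.09, -0.18, -0.52 and -0.17 in vehicle and at 0.88, 1.32, 1.26, 1.21 and 1.30 at the high dose, a change of 1.47 ± 0.16 (adjusted p = 6.79e-06). Zmat3 changed by 1.31 ± 0.11, Trp53inp1 by 1.14 ± 0.11, Sesn2 by 0.82 ± 0.13, Plk2 by 0.79 ± 0.15, Plk3 by 0.71 ± 0.11 and Mdm2, the ubiquitin ligase that degrades p53, by 0.64 ± 0.09. The groups did not overlap in these 7 genes, and Cdkn1a and Gdf15 completed the 9. In the apoptosis list, the death receptor Tnfrsf10b (1.57 ± 0.12), the nuclease Aen (1.51 ± 0.12) and Bax (1.44 ± 0.13), which permeabilises mitochondria, were upregulated beside Phlda3. Bbc3, Pmaip1, Perp and Fas, which act in the same process, were not DEGs, with changes of 0.26, 0.22, -0.45 and -0.18. The 4 apoptosis genes were DEGs in all 10 omissions, and 8 to 10 arrest genes were.

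Few DNA repair and proliferation genes passed the threshold after loess normalization. With median centring, 10 of 22 mitosis genes and 15 of 22 replication genes were upregulated, and with the Cy5 channel alone 2 and 4. Polk, a polymerase that copies past bulky adducts, was the only DEG of 16 genes of excision repair and translesion synthesis, with -0.11, -0.06, -0.38, 0.02 and -0.02 in vehicle and 0.57, 0.60, 0.69, 0.69 and 0.57 at the high dose. Its change was 0.74 ± 0.10 by the called probe (adjusted p = 0.000126) and 0.37 by the other, and it was no DEG with the Cy5 channel alone. The mean over the 16 genes ranged from -0.43 to -0.37 in vehicle and from -0.33 to -0.23 at the high dose, without overlap. Their median change was -0.02. Xpc and Ddb2, which recognise lesions, gave -0.04 and 0.29, and none of 13 genes of homologous recombination and checkpoints was a DEG. Mgmt, the methyltransferase that repairs alkylated guanine, was noticed after its values were seen and changed by 0.92 ± 0.14 (adjusted p = 0.000345). Of 22 mitosis genes, Mki67 was upregulated (0.63 ± 0.19, adjusted p = 0.0484), with overlapping groups and in 3 of 10 omissions. Uhrf1, which maintains DNA methylation at the replication fork, was the only DEG of 22 replication genes (0.92 ± 0.17 by the called probe, -0.14 by the other). The median changes were 0.16 for mitosis and 0.25 for replication at the high dose. At the low (25 mg/kg-bw/day) and medium (50 mg/kg-bw/day) doses, which share the vehicle mice, the mitosis medians were 0.99 and 0.61 and the replication medians 0.55 and 0.46.

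**Figure D2:**
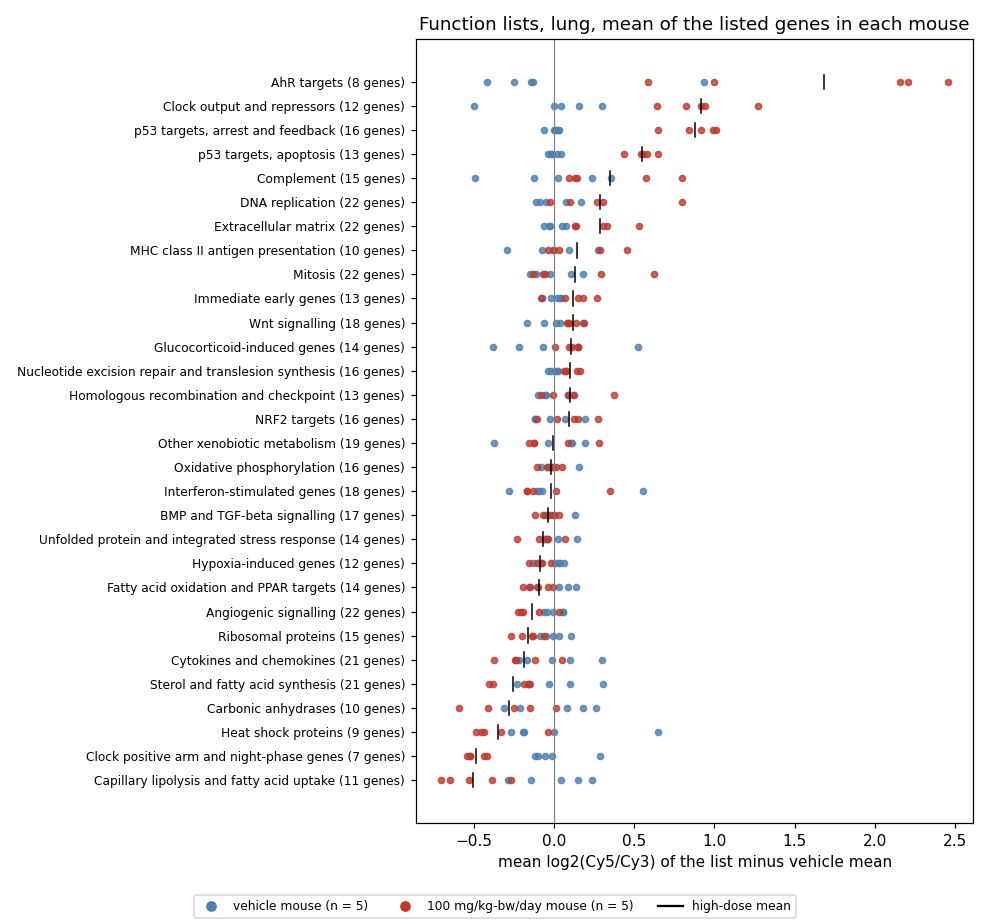
Mean log2(Cy5/Cy3) over each function list minus its vehicle mean (x axis), for 5 vehicle mice (blue) and 5 high-dose mice (red), with the high-dose mean as a black bar; the lists are ordered by that mean. The high-dose mice lay apart from all vehicle mice for both p53 lists and both clock lists. They also lay apart for extracellular matrix and, by a narrow gap, for excision repair and translesion synthesis. For the AhR targets vehicle mouse 2 lay among the high-dose mice.

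The clock lists held genes of opposite phase. Of 12 output genes and repressors, 9 were upregulated (median 0.87), and of 7 genes of the positive arm and night phase, 2 were downregulated (median -0.08). Dbp, Tef and Hlf encode the PAR bZIP activators that act at D-boxes. Dbp stood at -0.67, -2.29, -0.32, -0.09 and -0.95 in vehicle and at 1.59, 2.15, 2.45, 2.19 and 1.65 at the high dose. Tef changed by 0.91 ± 0.17 and Hlf by 0.97 ± 0.18, and Nfil3, the repressor of the same sites, by -1.18 ± 0.15 (adjusted p = 6.66e-05), from -1.61 to -0.55 in vehicle to -2.54 to -2.21. The activators and the repressor of these sites therefore moved in opposite directions. Per2 changed by 1.16 ± 0.15, Per3 by 0.82 ± 0.15, Nr1d2 by 0.94 ± 0.19 and Nr1d1 by 0.72 ± 0.19, the last with overlapping groups. Ciart, a repressor of the Clock and Arntl pair, was at least 1.74-fold higher at the high dose, being well above background on the high-dose arrays alone, and the kinase Wee1 was the ninth DEG. Bhlhe41 and Cry2 were not DEGs (0.19 and 0.15), nor was Per1 (0.67), and Clock of the positive arm gave -0.54 (adjusted p = 0.000562), under the threshold of fold. Vehicle mouse 2 was the lowest of the vehicle mice for Dbp, Nr1d1, Nr1d2 and Tef and the highest for Nfil3 and Arntl. Without it, 7 of the output genes were DEGs, and the same number was found in 5 omissions in all.

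The E-box CACGTG, bound by Clock and Arntl, occurred in 8.29% of all promoters searched, in 10.8% of those of upregulated and in 10.3% of those of downregulated genes. The D-box TTATGTAA occurred in 0.853% of all, in 0.883% of those of upregulated genes and in 0 of the 116 promoters of downregulated genes. Promoters were found for 7 of the 9 upregulated output genes, of which 2 held the E-box and 1 the D-box; none of the 3 motifs contains another. Windows of 60 bases are shown for the genes with an E-box or a D-box, with 1 occurrence of it in capitals.
Ciart, chr3:95882254-95882313, - strand: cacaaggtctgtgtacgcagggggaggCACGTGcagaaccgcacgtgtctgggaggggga
Tef, chr15:81802519-81802578, + strand: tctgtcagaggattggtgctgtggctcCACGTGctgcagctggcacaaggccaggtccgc
Per3, chr4:151044837-151044896, - strand: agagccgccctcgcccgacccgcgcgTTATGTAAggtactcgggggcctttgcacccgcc

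Endothelial genes did not move as a block. Of 15 pan-endothelial genes, 5 were upregulated and none downregulated (median 0.16), whereas of 9 genes of general capillary cells, 3 were downregulated and none upregulated (median -0.46). With median centring the capillary list had 2 genes in each direction and a median of 0.16, and with the Cy5 channel alone 2 pan-endothelial genes were downregulated. The mean over the general capillary list ranged from 4.16 to 4.79 in vehicle and from 3.48 to 3.93 at the high dose, with no overlap. This mean includes Gpihbp1, which changed by -3.36 against the list's median of -0.46. At the low and medium doses the list's median changes were -0.03 and 0.08. The pan-endothelial mean ranged from 3.87 to 4.37 in vehicle and from 4.22 to 4.77 at the high dose, so that the groups overlapped through 1 high-dose mouse.

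Among the pan-endothelial genes, Emcn, a mucin of capillaries and veins, stood at 3.25, 2.77, 2.62, 2.80 and 3.65 in vehicle and at 4.61, 4.81, 4.13, 5.22 and 5.39 at the high dose. It was 3.52-fold higher (1.81 ± 0.28, adjusted p = 0.000456). The junction genes Cdh5, VE-cadherin, and Pecam1 changed by 0.82 ± 0.20 and 0.74 ± 0.14, and the transcription factor Sox17 by 0.78 ± 0.21 with overlapping groups and in 5 of 10 omissions. Mmrn2, an extracellular matrix protein of endothelial cells, lay between 5.55 and 5.86 in vehicle and at 8.46, 8.56, 7.58, 8.72 and 8.90 at the high dose. Other genes that mark all endothelium did not pass. Kdr, the main VEGF receptor, gave -0.20, Tek -0.30, Tie1 0.21, Vwf -0.21, Eng -0.13 and Icam2 0.16, and Clec14a, the partner of Mmrn2, gave -0.54 (adjusted p = 0.0176), under the threshold of 1.5-fold. Further DEGs known from endothelium were noticed after their values were seen. They were upregulated in the case of Adgrl4 (1.57 ± 0.28), Podxl (1.42 ± 0.15), the nitric oxide synthase Nos3 (1.11 ± 0.14), Bcl6b (1.10 ± 0.16) and Egfl7 (0.82 ± 0.07), and downregulated in the case of Fzd4 (-0.71 ± 0.12) and the sphingosine receptor S1pr1 (-0.69 ± 0.19).

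In the general capillary list, Gpihbp1, which carries lipoprotein lipase to the capillary lumen, stood at 6.18, 6.15, 5.88, 5.97 and 6.65 in vehicle and at 3.51, 1.84, 3.98, 3.06 and 1.64 in mice 16 to 20. Hilpda, an inhibitor of intracellular lipolysis, stood at 1.69, 1.60, 2.02, 2.28 and 2.33 in vehicle and at 1.23, 0.11, 1.17, 0.41 and -0.37, a change of -1.47 ± 0.24 (adjusted p = 0.000725) that both probes showed. For both genes, mice 17, 19 and 20 were lower than mice 16 and 18. Plvap, which forms the diaphragms of endothelial pores, changed by -0.76 ± 0.21 (adjusted p = 0.0356) with overlapping groups and was a DEG in 4 of 10 omissions. Aplnr (-0.75), Glp1r (-0.46), Kit (-0.03), Ptprb (-0.06) and Cd93 (0.16) were not DEGs, so the list's downregulated genes were 3 of its 9, and 2 in some omissions.

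In the aerocyte list, 2 of 9 genes were downregulated and 1 was upregulated (median -0.20). With median centring the median was 0.30, with 3 upregulated and 2 downregulated genes, and with slide as a term none was upregulated and 3 were downregulated. Ednrb, the endothelin B receptor, stood at 4.32, 4.41, 4.16, 4.01 and 4.59 in vehicle and at 2.92, 2.13, 2.75, 2.57 and 2.49 at the high dose. It was 3.30-fold lower by the brighter probe (-1.72 ± 0.24, adjusted p = 0.000156), and the second probe gave -1.49. Fibin, a secreted protein, decreased by 1.32 ± 0.21 (adjusted p = 0.000571). Car4, a membrane carbonic anhydrase of these cells that is also on the alveolar macrophage list, gave 0.37. Apln, the apelin ligand, gave 0.10, and neither was a DEG. Prx, periaxin, changed by 0.60 ± 0.13 and was a DEG in 4 of 10 omissions. At the other doses Ednrb gave changes of -0.53 (low) and -1.24 (medium). In the capillary lists, 3 of 9 general capillary and 2 of 9 aerocyte genes were thus downregulated, against 0.684% of all genes with a symbol. Gpihbp1, Plvap and Ednrb were among them, whereas Aplnr, Car4 and Apln did not pass. In both lists the mean of all 5 high-dose mice lay below that of every vehicle mouse.

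**Figure D3:**
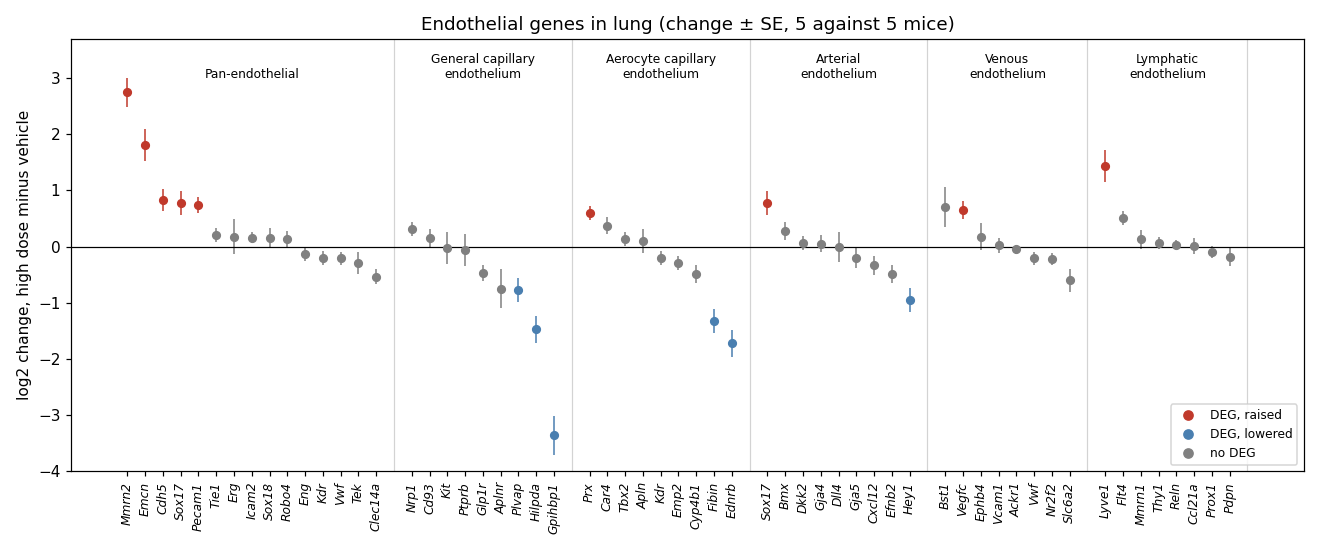
Change in lung (y axis, high dose minus vehicle in log2 units ± SE, 5 against 5 mice) for the genes of 6 endothelial lists, with upregulated DEGs in red, downregulated DEGs in blue and other genes in grey. The pan-endothelial list holds 5 upregulated DEGs and the capillary lists 5 downregulated DEGs, with Gpihbp1 at -3.36, and 1 upregulated DEG, Prx; the other lists hold 1 or 2 DEGs, and most members are grey.

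The other vessel types showed single changes. Of 9 arterial genes, Sox17 was upregulated and Hey1, a Notch target, downregulated (-0.95 ± 0.22, adjusted p = 0.0110; no DEG with median centring). Of 8 venous genes, the growth factor Vegfc was upregulated (0.65 ± 0.17), and of 8 lymphatic genes, Lyve1, a hyaluronan receptor also present on lung macrophages and capillaries. Lyve1 lay at 6.89, 6.50, 6.07, 5.89 and 7.35 in vehicle and at 7.56, 7.92, 7.50, 8.51 and 8.39 at the high dose (1.43 ± 0.29, adjusted p = 0.00373). Prox1, which defines lymphatic endothelium, was not well above background on any of the 10 arrays. Median changes of the 3 lists lay between -0.013 and 0.046. Among 22 genes of angiogenic signalling, Unc5b, a netrin receptor of sprouting vessels, was upregulated (0.93 ± 0.13, adjusted p = 0.000114), and Esm1 and Hey1, both also in other lists or among the largest changes, were downregulated. Esm1, a secreted proteoglycan of tip cells, lay between 1.87 and 3.46 in vehicle and between -0.26 and 1.12 at the high dose. Vegfa changed by -0.40, under the threshold.

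Basement membrane genes led the upregulated genes of the extracellular matrix list. Of 22 genes, 4 were upregulated and 1 was downregulated, with a median of 0.24, and all 5 high-dose mice had a higher list mean than any vehicle mouse. Col18a1, the source of endostatin, stood at -0.78, -0.53, -0.61, -0.66 and -0.21 in vehicle and at 0.37, 1.23, -0.04, 0.52 and 0.84 at the high dose (1.14 ± 0.17, adjusted p = 0.000245). Col4a2, a chain of type IV collagen, changed by 0.91 ± 0.12 (adjusted p = 0.000114), Postn, periostin, by 0.79 ± 0.12 and Sparc by 0.65 ± 0.18. Col4a1, the partner chain of Col4a2, gave 0.58, just under the threshold, and the interstitial collagens Col1a1 and Col1a2 gave 0.33 and 0.12. Spp1, osteopontin, was downregulated (-0.61 ± 0.15; no DEG with median centring). The count of upregulated genes was 3 to 6 in the omissions and 11 with median centring. In the list of BMP and TGF-beta signalling, with 17 genes, the BMP receptor Bmpr2 was downregulated (-0.75 ± 0.17, adjusted p = 0.00841), from 2.96 to 3.85 in vehicle to 2.26 to 2.67, but it was no DEG with median centring (-0.24). Bmp4, Bmp6, Smad7 and Id3 gave changes of -0.42, -0.49, -0.42 and -0.42, under the threshold of fold. The only DEG of 18 Wnt genes was the feedback inhibitor Nkd1 (0.96 ± 0.15, adjusted p = 0.00035). Of 12 hypoxia-induced genes, Adm, the vasodilator adrenomedullin, was downregulated (-0.91 ± 0.21) and Ndrg1 upregulated (0.64 ± 0.16). Adm was no DEG with median centring (-0.46), and neither gene was one with the Cy5 channel alone.

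The 3 lists of lipid genes held 4 DEGs, all downregulated; Hilpda, described above, is not on them. Gpihbp1 was the only DEG of 11 genes of capillary lipolysis and fatty acid uptake, in which Lpl, the lipase it carries, gave -0.09 and Cd36 -0.30. Fabp4 gave -0.90 ± 0.70 and ranged from 1.21 to 5.59 in vehicle and from 1.74 to 5.73 at the high dose, together with genes of fat and heart such as Cfd (0.89 to 7.04 and 1.48 to 7.88); their part in the list was not tested. Of 21 genes of sterol and fatty acid synthesis, Sqle (-0.72 ± 0.13, adjusted p = 0.00219) and Lss (-0.61 ± 0.14, adjusted p = 0.0112), successive enzymes of cholesterol synthesis, were downregulated. The median of this list was -0.29 but 0.18 with median centring and 0.018 within the third slide. Lss was a DEG in 7 of 10 omissions, and neither gene was one with median centring. Acot1, an acyl-CoA thioesterase, was the only DEG of 14 genes of fatty acid oxidation and PPAR (-0.75 ± 0.22) and was a DEG in 3 of 10 omissions, but not with median centring (-0.26). Car14 was the only DEG of 10 carbonic anhydrases, at 2.76, 2.67, 2.11, 2.60 and 2.78 in vehicle and 0.81, 0.61, 0.46, 0.20 and 0.50 at the high dose; Car2, Car4 and Car12 gave -0.22, 0.37 and -0.20.

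The mean over NK cell genes was lower in every high-dose mouse than in any vehicle mouse. Of 9 genes, 3 were downregulated and none was upregulated, with a median of -0.56 (-0.27 with median centring). With median centring 2 were downregulated. Gzma, granzyme A, stood at 4.70, 5.43, 5.59, 6.71 and 5.65 in vehicle and at 2.81, 1.502, 3.31, 5.02 and 1.98 at the high dose. It decreased by 2.69 ± 0.53 (adjusted p = 0.00313), and the groups overlapped because of high-dose mouse 19. Ncr1, the receptor NKp46 that defines these cells, was at least 1.63-fold lower, all 5 vehicle arrays but none of the high-dose arrays being well above background. Klrb1c, a lectin-like receptor, decreased by 0.75 ± 0.18 by 1 of 2 probes and was well above background on 1 high-dose array. Prf1, perforin, and Klra8 gave -0.57 and -0.56 with adjusted p of 0.0375 and 0.00724, just under the threshold of fold, and Klrd1, Eomes, Nkg7 and Klre1 gave -0.49, -0.46, -0.33 and -0.27. All 9 members were thus below 0, and 3 or 4 were DEGs in each omission. Of 11 Ly49 receptors, a family singled out after its values were seen, Klra4 and Klra16 were downregulated, and 5 were not well above background on any of the 10 arrays. At the low and medium doses the NK medians were -0.24 and -0.32. Ccl5, a chemokine of NK and T cells, decreased by 1.58 ± 0.43 (adjusted p = 0.0313) with overlapping groups and in 3 of 10 omissions.

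Platelet genes were examined next. Of 8 genes, Treml1 (-0.85 ± 0.25) and Clec1b (-0.68 ± 0.17), surface proteins of platelets, were downregulated (list median -0.41). The count ranged from 0, without vehicle mouse 4, to 3, and was 0 with median centring. Pf4, Ppbp, Gp9 and Itga2b gave -0.40, -0.41, -0.79 and -0.52. Red cell genes, another measure of blood in the tissue, gave -0.32 for Hba-a1 and -0.23 for Alas2, and none of 6 was a DEG. Cx3cr1, the fractalkine receptor of patrolling monocytes, was the only DEG of 11 monocyte and interstitial macrophage genes. It stood at 3.89, 3.53, 3.79, 3.98 and 3.97 in vehicle and at 2.65, 2.53, 2.75, 3.53 and 2.70 at the high dose (-0.999 ± 0.21, adjusted p = 0.00488). Its ligand Cx3cl1 stood at 0.28, 0.35, 0.03, 0.10 and 0.54 in vehicle and at -0.27, -1.10, -0.54, -1.06 and -1.61. Receptor and ligand were therefore both lower, although neither was a DEG with median centring (-0.57 and -0.61). The list's median was -0.24, and 0.15 with median centring, and Ccr2, Csf1r and Adgre1 gave -0.46, -0.24 and -0.11. Siglech, a receptor of plasmacytoid dendritic cells, was downregulated by 1 of 2 probes (-0.93 ± 0.22, adjusted p = 0.0126), vehicle mouse 5 being highest at 2.82. The other probe, which was brighter, gave -0.20.

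Some neutrophil and B cell genes were upregulated at the high dose, and none was downregulated. Of 11 neutrophil genes, 3 were upregulated (median 0.74), and the mean of all 5 high-dose mice lay above that of all vehicle mice. Mmp8 stood at 0.74, 0.76, 1.27, 0.33 and 0.81 in vehicle and at 2.01, 3.18, 1.95, 3.81 and 3.89 at the high dose (adjusted p = 0.000607). Retnlg and S100a8, a secreted resistin-like factor and an abundant cytosolic protein of neutrophils, changed by 1.26 ± 0.33 and 1.20 ± 0.34 with overlapping groups. S100a9, the partner of S100a8, gave 0.74 (adjusted p = 0.0881), Cxcr2 1.04 (adjusted p = 0.0791) and Csf3r -0.35, while the granule genes Ngp, Camp and Ltf gave 0.25, 0.47 and 0.12. Only 1 gene of the list was a DEG without vehicle mouse 1 or high-dose mouse 17, 19 or 20, 2 without vehicle mouse 2, 4 or 5, and 5 without high-dose mouse 18. The cytokine Il1b was upregulated (1.14 ± 0.29, adjusted p = 0.0200), and the neutrophil attractant Cxcl5 was downregulated (-1.62 ± 0.46, adjusted p = 0.0398), vehicle mouse 2 standing at 0.67 against -2.28 or less in the others.

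Of 12 B cell genes, 4 were upregulated (median 0.61), and 9 with median centring. The list mean ranged from 1.22 to 2.20 in vehicle and from 2.02 to 2.77 at the high dose, so that the groups overlapped. Cxcr5, the receptor that guides B cells to follicles, stood at 1.72, 2.21, 1.41, 2.43 and 2.84 in vehicle and at 3.53, 2.90, 3.17, 3.69 and 3.95 at the high dose (1.33 ± 0.32, adjusted p = 0.0135). Cr2, a complement receptor, changed by 0.89 ± 0.18 (adjusted p = 0.00432), and Bank1 by 0.93 ± 0.27 with overlapping groups. Cd79a, Ms4a1 and Pax5, which define B cells, gave 0.32, 0.31 and 0.13 and were not DEGs. The count was 2 to 6 in the omissions, with 2 without vehicle mouse 1, 2 or 3 or high-dose mouse 19 or 20 and 6 without vehicle mouse 4. Medians of 0.43 and 0.73 were found at the low and medium doses. Plasma cell genes held no DEG; Xbp1 gave -0.53 ± 0.10 (adjusted p = 0.00228), under the threshold of fold, and Sdc1 0.28. Ccr7, which leads lymphocytes and dendritic cells to lymph vessels, lay between 2.92 and 3.61 in vehicle and between 4.18 and 4.73 at the high dose (1.20 ± 0.18, adjusted p = 0.000296), and Il7r changed by 0.70 ± 0.21. Il7r was a DEG in 2 of 10 omissions and not with the Cy5 channel alone. They were the only DEGs of 14 T cell genes, of which Cd4 and Lck gave -0.16 and 0.08. Btla and Cd69, receptors of lymphocytes noticed after their values were seen, changed by 1.27 ± 0.18 and 1.27 ± 0.16.

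**Figure D4:**
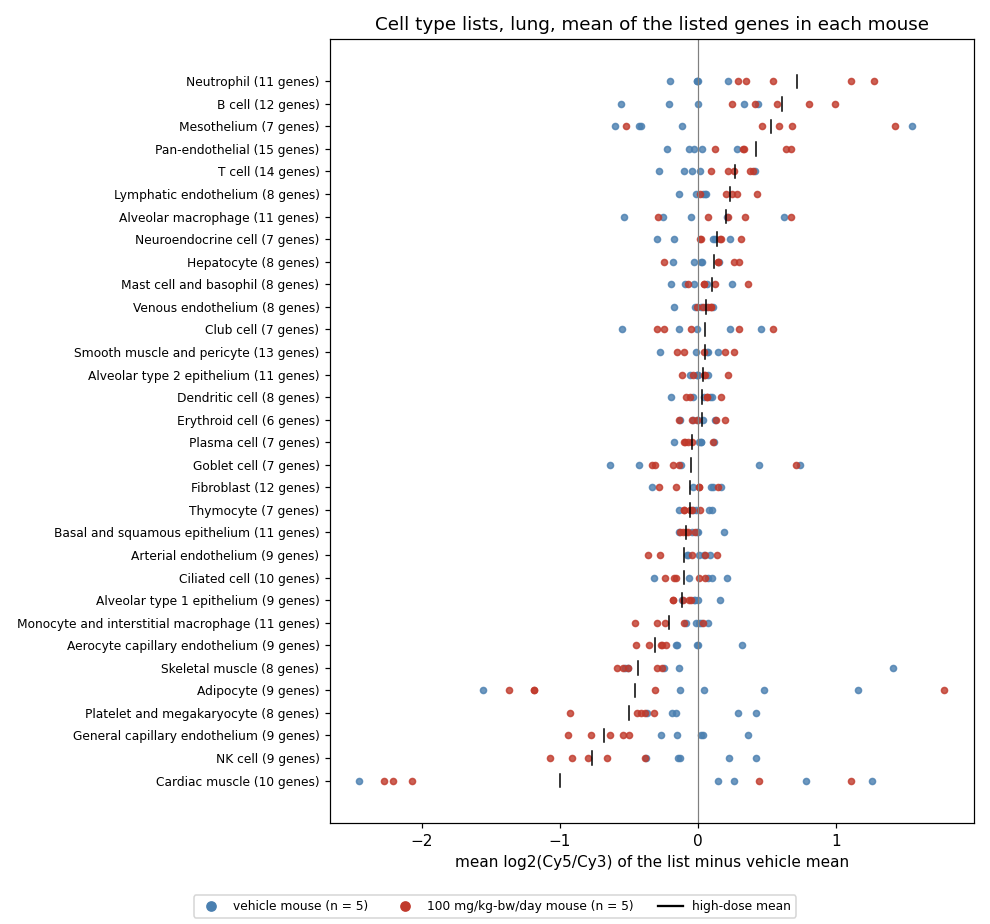
Mean log2(Cy5/Cy3) over each cell type list minus its vehicle mean (x axis), for 5 vehicle mice (blue) and 5 high-dose mice (red), with the high-dose mean as a black bar; the lists are ordered by that mean. The high-dose points lie to the right of all vehicle points for neutrophil genes and to the left for NK cell, general capillary and aerocyte genes, while cardiac muscle and adipocyte genes spread over more than any other list in both groups. Single genes with large changes weigh on such means, such as Gpihbp1 (-3.36) for general capillary and Ednrb (-1.72) for aerocyte genes.

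No DEG was found in the lists of alveolar epithelium, airway epithelium, fibroblasts or mesothelium after loess normalization. With median centring 5 genes of alveolar type 2 cells, 4 of fibroblasts and 2 each of type 1 cells and mesothelium were upregulated. Sftpc and Sftpd of alveolar type 2 cells gave 0.04 ± 0.15 and 0.08 ± 0.18, and Hopx and Gprc5a of type 1 cells -0.22 ± 0.12 and -0.05 ± 0.11. Scgb1a1 and Cyp2f2 of club cells gave 0.0030 ± 0.13 and -0.10 ± 0.20. Dynlrb2 and Tubb4b, from the list of ciliated cells, gave -0.15 ± 0.17 and -0.14 ± 0.07, and the mucosal genes Bpifb1 and Muc5b both -0.04, with SE of 0.53 and 0.76. The named genes of the surface epithelia thus gave changes close to 0 where the spread was small. The list medians were -0.19 for type 1 cells, with 2 of 9 members above 0, and -0.14 for ciliated cells, with 1 of 10. For type 2 and club cells the medians were 0.06, with 8 of 11 members above 0, and -0.08, with 3 of 7. Trp63 (-0.38 ± 0.13) and Krt10 (-0.01 ± 0.17) of stratified epithelium, Inmt (0.14 ± 0.15) and Gsn (-0.50 ± 0.13, adjusted p = 0.0233) of fibroblasts, and Krt19 (-0.16 ± 0.14) and Msln (1.19 ± 0.58) of mesothelium did not pass both thresholds. The mesothelial median of 0.64 was -0.39 within the first slide, in which vehicle mouse 1 had the highest Msln of the vehicle mice. In the neuroendocrine list Grp was downregulated, at least 3.11-fold, and Uchl1 upregulated, while Chga and Calca, which mark these cells, gave -0.06 and 0.11. Postn was the only DEG of 13 smooth muscle and pericyte genes, and the scavenger receptor Marco (1.30 ± 0.35, adjusted p = 0.0274) was the only one of 11 alveolar macrophage genes and a DEG in 3 of 10 omissions. Tpsb2 and Gata2 of mast cells gave -0.16 ± 0.12 and -0.45 ± 0.17. Cd1d1 was the only DEG of 7 genes in the thymocyte list (-0.66 ± 0.11; no DEG with median centring); it is expressed by many other cells, and 4 of the 7, Rag1 among them, were not well above background on any of the 10 arrays.

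Tissues next to the lung were assessed in the same way. The cardiac list had a median of -1.25 and no DEG, with Myl4 at -1.55 ± 0.99 and Myh6 at -1.47 ± 1.29. Skeletal muscle (Acta1 -0.66 ± 0.66, Tnnc2 -0.97 ± 0.87) and fat (Fabp4 and Cfd, the latter -0.80 ± 1.20) had medians of -0.46 and -0.48, which were 0.039 and 0.26 within the third slide. Of 8 hepatocyte genes 4 were not well above background on any array and none was a DEG, with Apoa2 at 0.50 ± 0.11 and Serpina1a at 0.64 ± 0.74. The groups overlapped in the means of all 4 lists, and their part in the results above was not tested.

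Histone genes moved in both directions, as was noticed after their values were seen. Of 70 genes with a histone symbol, 11 were upregulated, all for linker histone or for H2A, H2B or H3, and 5 were downregulated, all for H4 (H4c4, H4c11, H4c12, H4c14 and H4f16). H1f2 stood at -0.02, 0.29, -0.34, 0.19 and 0.08 in vehicle and at 2.02, 2.73, 1.501, 1.81 and 2.17 at the high dose. H3c15 changed by 1.41 ± 0.19 and H2bc4 by 1.21 ± 0.10, and the H4 genes changed by -0.76 to -0.62. The H4 genes encode the same protein and share most of their sequence, so their probes may read the same transcripts and are not independent; they were not DEGs with median centring, nor, apart from H4c11, with the Cy5 channel alone. Of the 70 genes, 17 were not well above background on any of the 10 arrays, and the median was -0.0062. Among 35 clustered protocadherins, adhesion proteins also singled out after their values were seen, Pcdhb10 (1.09) and Pcdhb17 (0.79) were upregulated; their probes may likewise share transcripts.

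The remaining function lists gave few or no DEGs. Klf4, a transcription factor, was the only one of 13 immediate early genes (0.92 ± 0.12, adjusted p = 0.000109), and Ifi44 the only one of 18 interferon-stimulated genes (-1.01 ± 0.16, adjusted p = 0.000607), with Isg15 and Irf7 at 0.03 and -0.26. Cfp, properdin, was the only one of 15 complement genes (0.59 ± 0.13), at the limit of 1.5-fold and a DEG in 5 of 10 omissions. None of the genes for MHC class II (median 0.14), glucocorticoid response (0.25, and -0.35 within the third slide), the unfolded protein response (-0.06), heat shock (-0.27, and 0.24 with median centring), oxidative phosphorylation (0.00049) or ribosomal proteins (-0.16, and 0.33 with median centring) was a DEG. With median centring 7 glucocorticoid-induced and 7 complement genes were upregulated. Egfr (-0.70 ± 0.09) and Ccnd1, cyclin D1 (1.22 ± 0.15), were noticed among the DEGs outside the lists.

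**Figure D5:**
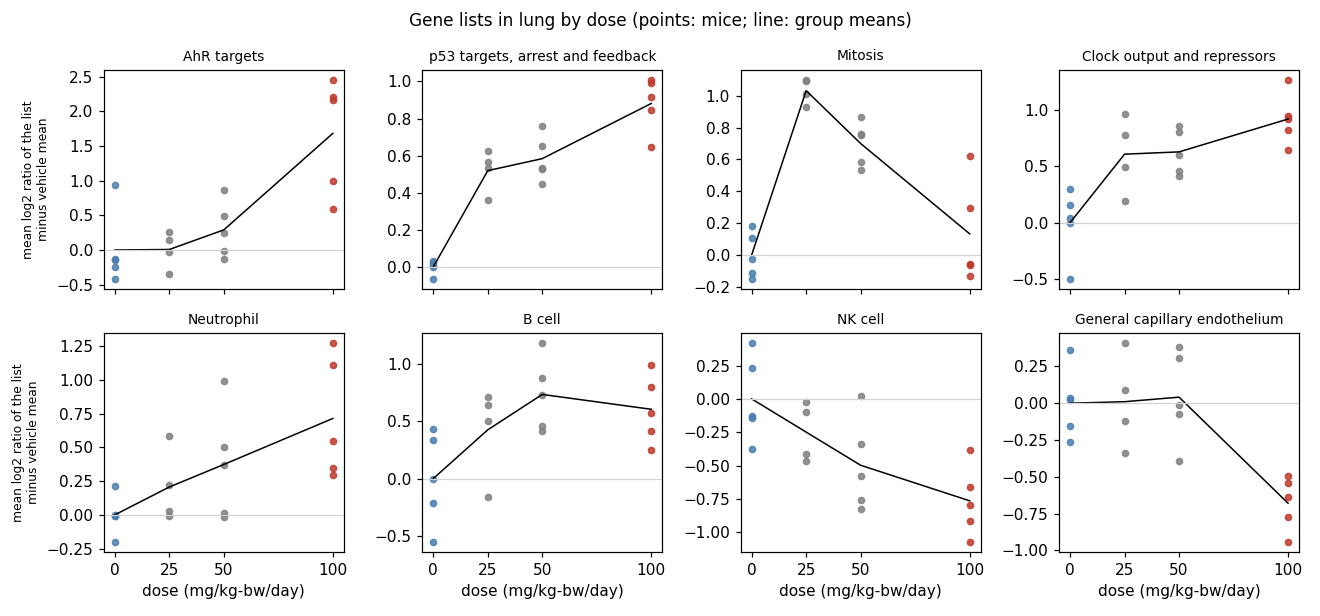
Mean log2(Cy5/Cy3) over 8 gene lists minus the vehicle mean (y axis) against the daily dose in mg/kg-bw (x axis), each point 1 mouse and the line the group means; low dose has 4 mice and the other doses 5. The general capillary list had median changes of -0.03, 0.08 and -0.46 from the low dose upwards, and the mitosis list was highest at the low dose.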

How the data were processed

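Lung RNA of 19 Muta™Mouse mice was hybridised to two-colour Agilent mouse arrays, the tissue in Cy5 and a universal reference RNA in Cy3, with no dye swap. The deposited scanner files hold the intensity of each spot in both channels as Feature Extraction gave it, not normalized. The authors' processed table holds log2 ratios after LOWESS normalization and was an alternative. Depth is set by the number of arrays: 44.8% to 52.7% of probes were well above background on the 10 arrays compared. Among the other arrays in the fit, medium-dose mouse 13 had 68.8%. Low-dose mouse 6 had the lowest mean correlation with its own group (0.926).

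Median intensities were loess-normalized without background correction, control spots and outlier flags were left out, and spots of a probe were averaged (55681 probes). All 19 lung arrays, from 3 slides, were fitted with limma 3.58.1 in R 4.3.3; the test is limma's moderated test with Benjamini-Hochberg adjustment, and a DEG had an adjusted p of at most 0.05 and a 1.5-fold change. Nothing in the labels links the 5 mice of a group beyond being separate animals. Gene names came from RefSeq (GRCm38.p6) for 26413 probes, matched by accession; the other 29268 kept the file's name. A gene is called if any probe is; its values are those of the brightest called probe, otherwise of its brightest probe. "At least" folds use, for the group not above background, the lowest signal well above background. Over 19 lung arrays 102 values were missing. In simulated data for this comparison on 55579 probes, 99 of 100 changes of 2-fold and 99 of 100 of 4-fold were recovered. There were 4 false calls. The simulation drew independent normal noise with the same spread in every group, without slide effects or a normalization step. It therefore describes the fitting step and does not measure error in the real arrays.

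Members and lists were chosen with earlier results of these data known. Named genes are the 20 largest changes in each direction among DEGs without overlap of the groups, up to 4 such DEGs per list, and 2 members of each cell type list without a DEG; others were chosen after their values were seen. Alternatives were median centring, normexp, the Cy5 channel alone, the authors' values, the 10 arrays alone, slide as a term, within-slide values, a background filter, an Fs-type shuffling test after the study's methods, a 2-fold threshold, and omission of each mouse. A few members of the lists are counted but not reported by name here.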

Additional observations from a re-analysis of the deposited data

Results flagged for a closer look

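In 32 of 348 groups of 5 mice tested, 1 mouse lay far from the others. Its distance to the nearest mouse was over 0.71 of the group's range. For independent, normally distributed values chance gives about 1 in 20. The groups here come from the same 10 mice, and genes recur within list means. The count of 32 therefore cannot be read against that rate. Among vehicle mice, mouse 2 was apart for Cyp1b1 (0.21), Ahrr (-0.14), Lama1 (2.74), Phlda3 (0.38) and Ccnjl (-0.94), and in the mean over AhR targets (1.09), clock positive arm genes (0.0322) and oxidative phosphorylation genes (0.0676). Vehicle mouse 1 was apart for Msln (-0.13) and Tnnc2 (2.36) and in the means of mesothelium (1.83) and skeletal muscle (1.37). Vehicle mouse 3 was apart for Car14 (2.11), Tnfrsf10b (-1.52) and Myh6 (0.40). Vehicle mouse 4 was apart for Klra16 (0.61) and Krt10 (0.31) and in the means of interferon-stimulated genes (0.43) and Ly49 receptors (0.29). Vehicle mouse 5 was apart for Slc5a12 (3.25) and in the means of hypoxia genes (-2.34) and protocadherins (0.30).

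At the high dose, mouse 16 was apart for Ccng1 (0.88), and mouse 17 for Ephx1 (2.53) and in the mean of platelet genes (1.04). Mouse 18 was apart for Serpina1a (0.0320) and in the means of plasma cell (-0.72) and hepatocyte genes (0.28). Mouse 20 was apart for Postn (4.07), Bpifb1 (3.83) and Fabp4 (5.73) and in the mean of goblet cell genes (1.91).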

How the results depend on the processing

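No paired analysis was possible because vehicle mice (1 to 5) and high-dose mice (16 to 20) share no number. With median centring 3388 DEGs were found, 3356 upregulated and 32 downregulated, of which 507 were among the 717; the brightest probes (the top 25%) shifted by 0.42. A 2-fold threshold left 164, 127 upregulated and 37 downregulated. Omission of 1 mouse gave 604 (without high-dose mouse 17) to 808 (without high-dose mouse 16) DEGs, 437 to 577 upregulated and 166 to 262 downregulated. The other alternatives gave 582 to 757. Of the 21 lists with a median of at least 0.2 in size, those of 8 changed sign in some setting: with median centring heat shock became 0.24, sterol synthesis 0.18, general capillary 0.16 and monocyte 0.15; within slide 1 mesothelium became -0.39; within slide 3 glucocorticoid genes became -0.35, sterol synthesis 0.0185, skeletal muscle 0.039 and adipocyte 0.26. Lists with medians closer to 0 changed sign too, among them, with median centring, alveolar type 1 (0.34), BMP and TGF-beta (0.34), ribosomal (0.33), aerocyte (0.30), angiogenic (0.29), ciliated (0.23) and carbonic anhydrase genes (0.17). The cause was not tested. None of the 78 genes named by rule with a change reversed in any setting. For the within-slide values and the omissions, the rule fixed this in advance. Of the 78, 9 were not DEGs with median centring, 6 with Cy5 alone and 2 with slide as a term. In some omission 3 (Cfp, Lss, Ndrg1) were lost. Of 132 DEGs in the lists or named by rule, 103 were DEGs in every omission.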
